A study of Mus musculus with 6 samples.

Results

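The 34 genes described here encode the machinery that copies DNA in S phase and its main controls at the G1/S boundary. They were chosen by name, as a list of known DNA replication and S phase genes, with earlier results of these data known. All 34 were found among the 25251 genes of the deposited table. They comprise the licensing factors Cdc6 and Cdt1, the helicase subunits Mcm2 to Mcm7 with Mcm10, the helicase partners Cdc45 and Gins1 to Gins4, the sliding clamp Pcna with the clamp loader subunits Rfc2 to Rfc5, the polymerase and primase subunits Pola1, Pole, Pole2 and Prim1, the nucleotide enzymes Rrm1, Rrm2, Tyms, Tk1 and Dut, the G1/S regulators E2f1, Ccne1 and Ccne2, and the chromatin and histone genes Uhrf1, Slbp and Chaf1b.

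Bulk RNA was sequenced from tumours formed under the skin by CT26, a colon carcinoma line of mouse origin, in BALB/c mice labelled WT. The 3 tumours of the irinotecan group came from mice that received irinotecan, a camptothecin prodrug also called CPT-11, at 25 mg/kg into the peritoneum every 4 days, with allocation at a tumour volume of 100 mm3. The 3 control tumours came from mice labelled as solvent-treated, and both groups carried the same cells in the same strain. The labels give neither the age and sex of the mice nor the interval between the last dose and collection, the series text mentions duplicates although 3 samples per group are listed, and no label ties each sample to its own mouse, so p-values reflect the spread between samples that may share a source.

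A replication origin is licensed in G1, when Cdc6 and Cdt1 help to load the MCM helicase around DNA. At the start of S phase Cdc45 and GINS join it to form the active helicase, polymerase alpha with primase lays down primers, and the clamp loader places Pcna so that the other replicative polymerases can extend them. E2F transcription factors switch on many of these genes at the G1/S boundary, and the active form of irinotecan traps topoisomerase I on DNA, where passing replication forks turn the trapped complexes into breaks.

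The libraries held 13940650 to 15656894 reads, recovered from the normalized counts. Among the libraries, irinotecan replicate 1 was set apart from the rest. Its correlation with them over genes was 0.932 to 0.941 on the log2 scale, it had reads for 19040 genes where the others had 20571 to 21426, and it was the lowest of the 6 libraries for 36.8% of the 14639 genes tested and the highest for 34.2%. Where the fold change of a gene is given, its value without this library is therefore given too. Of the 8 epithelial markers checked, Krt20 had 1943, 1665 and 1655 in the irinotecan libraries, against 1759, 1608 and 2098 in the controls, in normalized counts. Krt8 had 37.0, 149 and 143 in the irinotecan libraries, against 50.5, 65.9 and 80.4 in the controls. Krt18 had 46.2, 125 and 103 in the irinotecan libraries, against 124, 142 and 123 in the controls. Cdh1 had 11.1 to 38.0 in the irinotecan libraries and 13.6 to 26.1 in the controls. Its log2 fold change was 0.18 (SE 0.536), and -0.27 (SE 0.480) without irinotecan replicate 1. The groups of all 4 overlapped, with log2 fold changes of 0.52 (SE 0.517) for Krt8 and -0.61 (SE 0.362) for Krt18. With irinotecan replicate 1 left out these were 1.17 (SE 0.248) and -0.19 (SE 0.200), and the 2 remaining irinotecan values of Krt8 lay above all controls. Epcam, Krt19, Cdx2 and Vil1 had at most 4.84 in any library. The mesenchymal marker Vim had 77838, 82390.2 and 75451 in the irinotecan libraries, against 93206, 83999 and 77102 in the controls. In bulk tumour RNA, fewer cycling cells and less RNA per cycling cell cannot be told apart.

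A sequence feature that 9 of these genes shared was an E2F-type word in the promoter. A promoter of 300 bases, from 250 before to 50 after the transcription start, was held in the RefSeq table (GRCm38.p6) for 27 of the 34 genes. The words TTTCGCGC and TTTGGCGC were searched on both strands, and 9 of the 27 (33.3%) held at least 1 of them: Cdt1, Mcm3, Mcm5, Mcm6, Mcm7, Rfc3, Pola1, Pole2 and Uhrf1. Of all 27025 genes with a promoter sequence 0.929% held a word, and of the 10308 among them that were tested here 1.7% did. The CCAAT word, on either strand, was in 16 of the 27 (59.3%), against 41.1% of all genes. Stretches around the E2F-type words of 6 genes follow, since they show the element in genes of 4 different roles. Each is written 5′ to 3′ on the strand of the gene, with the words in capitals. In Mcm5, and at the first site of Mcm6, a word on one strand overlaps a word on the other.
Mcm5 promoter, chr8:75109316-75109407, plus strand: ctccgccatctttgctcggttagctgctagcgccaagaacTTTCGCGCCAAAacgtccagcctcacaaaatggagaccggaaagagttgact
Mcm6 promoter, chr1:128359705-128359855, minus strand: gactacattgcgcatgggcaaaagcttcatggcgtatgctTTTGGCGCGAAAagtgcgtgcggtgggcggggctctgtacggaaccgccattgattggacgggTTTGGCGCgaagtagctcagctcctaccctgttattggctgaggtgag
Mcm7 promoter, chr5:138171854-138171907, minus strand: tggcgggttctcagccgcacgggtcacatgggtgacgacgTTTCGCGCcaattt
Rfc3 promoter, chr5:151651179-151651258, minus strand: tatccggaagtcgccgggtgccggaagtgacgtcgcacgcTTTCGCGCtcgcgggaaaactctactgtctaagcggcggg
Pola1 promoter, chrX:93632246-93632333, minus strand: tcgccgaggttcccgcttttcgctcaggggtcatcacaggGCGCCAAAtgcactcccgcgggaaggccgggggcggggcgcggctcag
Uhrf1 promoter, chr17:56304088-56304175, plus strand: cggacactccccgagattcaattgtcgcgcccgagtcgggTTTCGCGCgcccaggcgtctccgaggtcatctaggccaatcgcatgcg

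Counted from the start, with bases before it negative, the words of Mcm5 began at -153 and -149 and those of Mcm6 at -110, -106 and -47. Rfc3 had its word at -10, Pola1 at -138 and Uhrf1 at -185. After the start lay the words of Mcm7, at 17, of Pole2, at 11, of Cdt1, at 33, and of Mcm3, at 39. A match is a description of these letters only. No promoter sequence was at hand for Mcm4, Gins1, Gins2, Gins4, Rfc2, Pole and Ccne2. Mcm7 and Uhrf1 each have 2 listed promoters, of which 1 is shown. In both genes the promoter shown holds the word and the other holds none, and a gene was counted if any listed promoter held a word. The stretches shown for these genes lie inside the annotated span of the gene.

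The question for the comparison was whether the RNA of the replication machinery differed between irinotecan tumours and controls. None of the 34 genes passed the threshold of a limma adjusted p under 0.05, none higher and none lower, and of all 14639 genes tested 0% were called higher and 0% lower. On the recovered reads edgeR also called 0 of the 34 and 0% of all genes in either direction. DESeq2 called 0 of the 34, beside 29 genes higher (0.198%) and 23 lower (0.157%) among all 14639. The authors' deposited table has 0 of the 34 at an adjusted p-value under 0.05, beside 28 genes higher (0.111%) and 19 lower (0.0752%) among its 25251. The log2 fold changes, irinotecan over control on the log2(normalized count + 1) scale, ran from -0.48 for Cdt1 to 0.28 for Pole. They were positive for 16 genes and negative for 18. Their median was -0.02, beside -0.01 over all genes tested. The smallest limma adjusted p among the 34 was 0.743, shared by Cdt1, Gins1, Rfc3, Pole and E2f1.

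**Figure D1:**
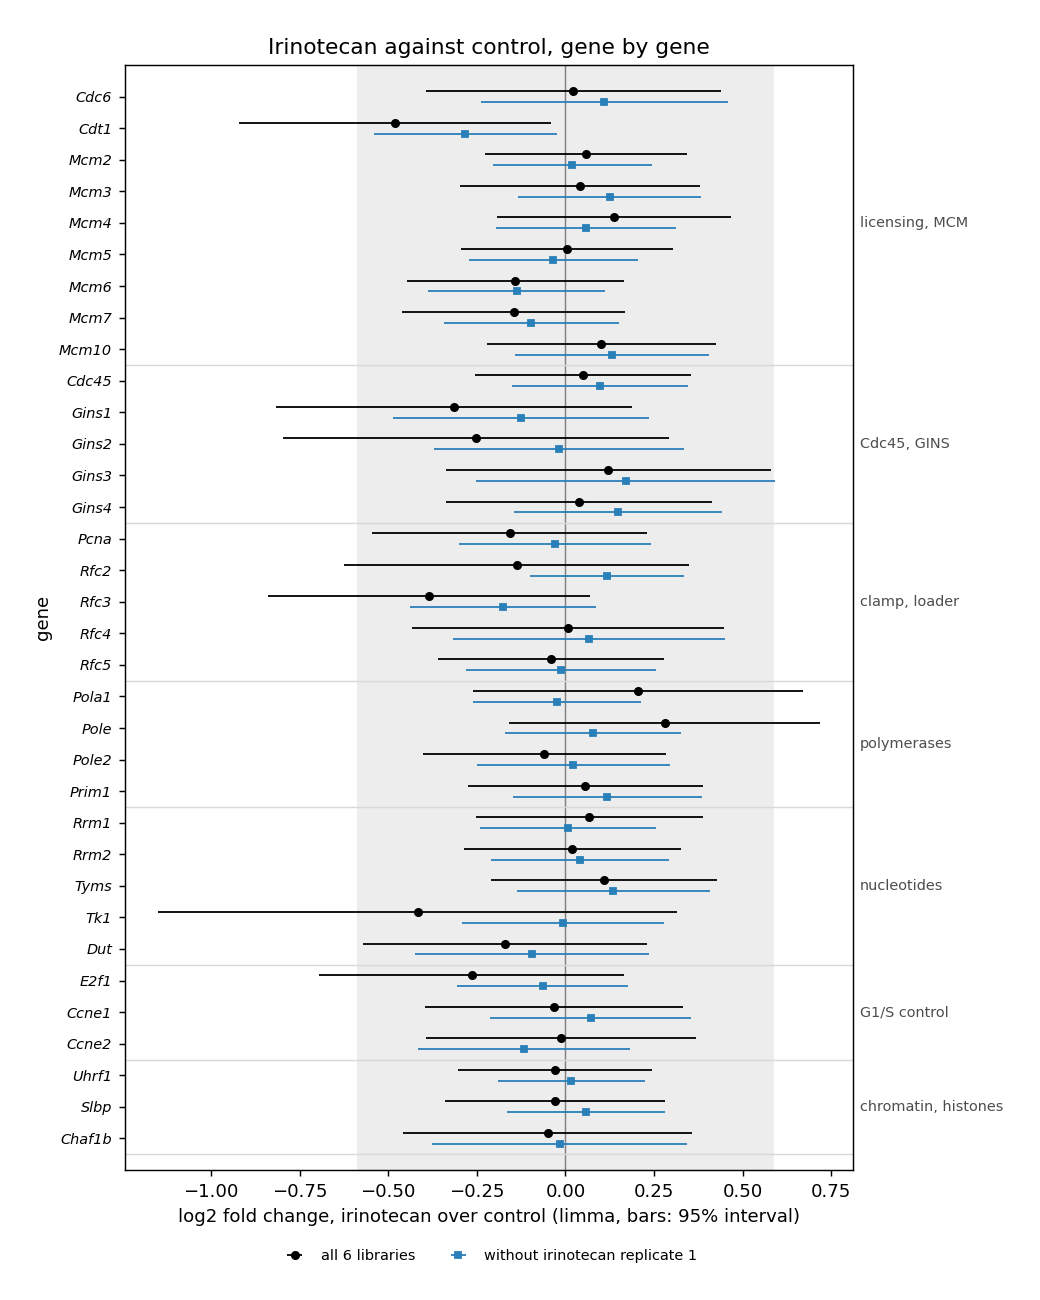
Log2 fold change of each gene, irinotecan over control, with its limma 95% interval (horizontal axis, log2 units), for all 6 libraries (black circles) and without irinotecan replicate 1 (blue squares). The grey band marks a 1.5-fold change either way. With all 6 libraries 25 of the 34 intervals lie within the band, and without irinotecan replicate 1 there are 33.

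The intervals say how large a difference the libraries leave room for. With all 6 libraries, the 95% limma interval lay within a 1.5-fold change either way for 25 of the 34 genes (73.5%), beside 33.5% of all genes tested. It lay within a 2-fold change for 33 of the 34, Tk1 being the exception. The median standard error of the log2 fold change was 0.162 for the 34 genes and 0.222 over all genes. These comparisons with all genes were not matched for level. The 34 genes had mean counts from 177 up, with a median of 1055, while all genes tested start at a mean of 10. Without irinotecan replicate 1 the interval lay within 1.5-fold for 33 genes (97.1%), beside 56.5% of all genes, and within 2-fold for all 34. Gins3, with 0.17 (SE 0.193), was the gene outside the 1.5-fold bound there, and the median of the 34 was 0.02.

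Cdt1, the licensing factor that brings MCM to the origin complex and is held in check by geminin, was the 1 gene of the 34 whose groups did not overlap. It lies at chr8:122568015-122573554 on GRCm38. It had 836, 1216 and 1312 normalized counts in irinotecan replicates 1, 2 and 3, against 1609, 1348 and 1671 in control replicates 1, 2 and 3. All 3 irinotecan libraries lay below the lowest control. The means were 1121 ± 252 with irinotecan and 1543 ± 172 in controls (SD, n = 3 each), and the log2 fold change was -0.48 (SE 0.192, 95% interval -0.92 to -0.04). The limma p was 0.0359 unadjusted and 0.743 after Benjamini-Hochberg adjustment over all genes. Groups that do not overlap were found for 14.6% of all genes tested (6.68% higher and 7.89% lower with irinotecan), and an unadjusted limma p under 0.05 for 5.77%, so 1 gene of 34 is a smaller share than that among all genes. The authors' deposited table gives Cdt1 a log2 fold change of -0.46, with a p-value of 0.0345 and an adjusted p-value of 0.762.

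Irinotecan replicate 1 had the lowest Cdt1 value by a wide margin. Leaving out a library cannot make groups overlap that did not, so only the size of the difference could change. Without irinotecan replicate 1 the log2 fold change was -0.28 (SE 0.117, limma unadjusted p = 0.0343, adjusted p = 0.485). It was -0.32 both with limma library weights and with a trend on GC content and length removed from each library. In the same comparison of 2 irinotecan with 3 control libraries 1 other gene of the list, Rfc2, had groups that did not overlap, with higher values, while 12.8% of all genes did so with higher and 13.7% with lower values. Markers of 3 other cell types were also lower in all irinotecan libraries than in any control, as sums over each list. The summed level of the 5 endothelial markers was 1329, 1488 and 1769.7 normalized counts in irinotecan replicates 1, 2 and 3, against 2353, 2009.5 and 2269.7 in control replicates 1, 2 and 3. That of the 4 neutrophil markers was 131, 170.5 and 209.8, against 289.8, 289.6 and 495. That of the 4 B cell markers was 7.19, 27.0 and 25.3, against 52.4, 53.3 and 32.9. None of these markers was at 0 in all 6 libraries, and their part in the Cdt1 difference was not tested.

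The other licensing genes lay within the spread of the controls or close to it. Mcm6, one of the 6 subunits of the helicase ring, had 3882, 3858 and 3959 normalized counts in irinotecan replicates 1, 2 and 3, against 4579.9, 3747 and 4635 in control replicates 1, 2 and 3. Its irinotecan libraries sat close together, between the lowest control and the 2 higher ones, with a coefficient of variation of 1.35%. The log2 fold change was -0.14 (SE 0.134, 95% interval -0.45 to 0.16), and -0.14 (SE 0.113) without irinotecan replicate 1. Mcm7, a neighbour of Mcm3 in the ring, had 3097, 3260.3 and 3621 in the irinotecan libraries, against 4071, 3290.3 and 3697 in the controls. The 3 irinotecan values and the 3 control values overlapped, with a log2 fold change of -0.15 (SE 0.137) that was -0.10 (SE 0.113) without irinotecan replicate 1. Of the exon bases of Mcm7, 8.70% lie under exons of genes on the opposite strand, whose reads may be counted with it since the labels do not state the strand setting.

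For the remaining helicase subunits the log2 fold changes were 0.06 for Mcm2, 0.04 for Mcm3, 0.14 for Mcm4 and 0.00 to 2 decimals for Mcm5, with standard errors of 0.124 to 0.148. Mcm10, which helps to activate the loaded helicase, had 0.10 (SE 0.141), and Cdc6, the ATPase that works with Cdt1 in loading, 0.02 (SE 0.182). The groups overlapped for each of these. Without irinotecan replicate 1 the log2 fold changes were 0.02 for Mcm2, 0.13 for Mcm3, 0.06 for Mcm4, -0.03 for Mcm5, 0.13 for Mcm10 and 0.11 for Cdc6. The summed count of Mcm2 to Mcm7 was 16695, 16542 and 16864 in irinotecan replicates 1, 2 and 3, against 17956, 15160 and 18179 in control replicates 1, 2 and 3. The irinotecan sums all lay between the lowest and the second control, and they differed from each other by less than the controls did.

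**Figure D2:**
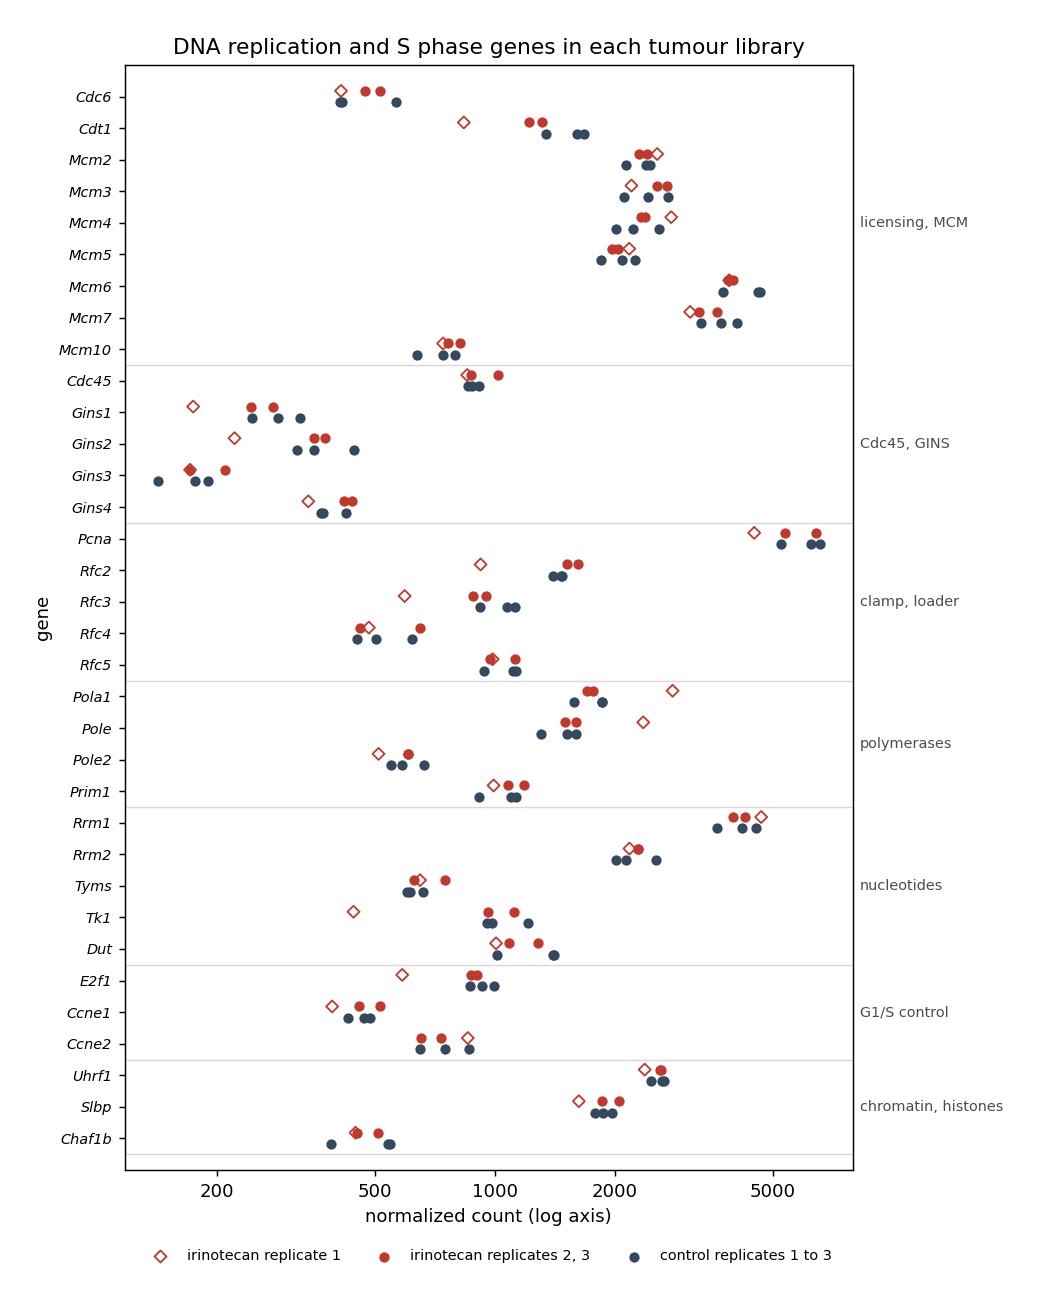
Normalized count (horizontal log axis) of each of the 34 genes in every library, with irinotecan replicate 1 as an open diamond, irinotecan replicates 2 and 3 as red points and the 3 controls as dark points, grouped by role. The ranges of the 2 groups overlap in all genes other than Cdt1.

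Levels can be set side by side between genes only per length, here as normalized counts per kilobase of the deposited gene length, which equals the union of a gene's exons. On this scale Mcm6 was highest among the 6 ring subunits, with 836 ± 11.3 in irinotecan tumours and 926 ± 107 in controls, and Mcm2 lowest, with 349 ± 18.5 and 335 ± 23.9. The order of levels from high to low was Mcm6, Mcm7, Mcm3, Mcm4, Mcm5, Mcm2 in 5 of the 6 libraries, and in irinotecan replicate 1 Mcm4 came second. Mcm3 (663 ± 68.5 in irinotecan tumours and 645 ± 81.9 in controls) and Mcm4 (696 ± 67.5 and 634 ± 79.9) did not differ beyond their spread. The level of Mcm6 over that of Mcm2 was 2.26, 2.38 and 2.56 in irinotecan replicates 1, 2 and 3, against 2.84, 2.61 and 2.82 in control replicates 1, 2 and 3. All 3 irinotecan ratios lay below the lowest control ratio. This pair was singled out as the highest and the lowest subunit, after the values were seen, and its difference was not tested.

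**Figure D3:**
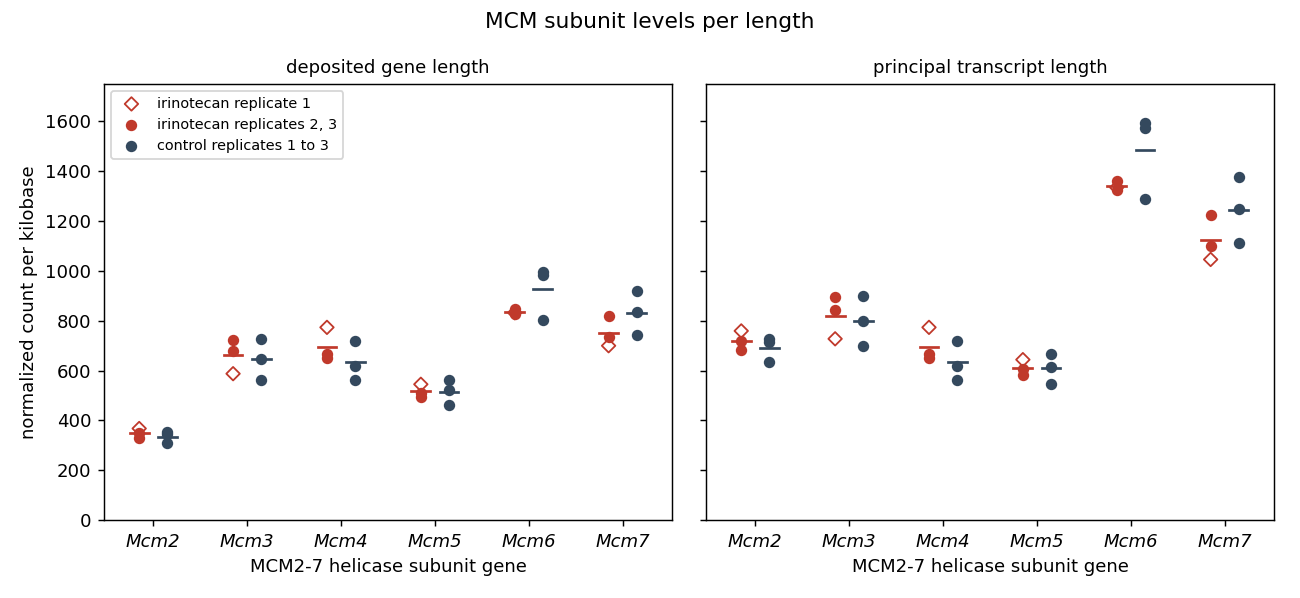
Level of each MCM ring subunit in normalized counts per kilobase, in irinotecan libraries (red, replicate 1 as an open diamond) and controls (dark), with a line at each group mean. On the left lengths are the deposited gene lengths and on the right those of the principal transcript. Mcm6 and Mcm7 have the highest group means in both panels.

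The order below the top depended on the length used. With the length of the longest principal transcript in GENCODE M21 in place of the deposited length, a choice made after the data were seen, Mcm6 and Mcm7 were the 2 highest in all 6 libraries, but the lowest was Mcm5 in 5 of them and Mcm4 in control replicate 1. The level of the highest over the lowest subunit in controls then averaged 2.49, beside 2.76 with the deposited length. Over the whole list Pcna had the highest level per kilobase, 2258 ± 404 in irinotecan tumours and 2503 ± 281 in controls, and Gins3 the lowest, 68.0 ± 8.17 and 62.7 ± 9.12. The second highest was Mcm6 in both groups.

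The partners that turn the loaded ring into a working helicase had 3 positive and 2 negative fold changes. Gins1, a subunit of the GINS complex, had 175, 244 and 277 normalized counts in irinotecan replicates 1, 2 and 3, against 323, 246 and 286 in control replicates 1, 2 and 3. Irinotecan replicate 1 was the lowest library, and the other 2 irinotecan libraries lay below the middle control. The log2 fold change was -0.31 (SE 0.219), and -0.12 (SE 0.164) without irinotecan replicate 1. Gins2 had 222, 374 and 352 in the irinotecan libraries, against 443, 318 and 351 in the controls, a log2 fold change of -0.25 (SE 0.238) that was -0.02 without irinotecan replicate 1. Exons of Gse1 on the opposite strand cover 67.3% of the exon bases of Gins2, so its counts may hold reads of Gse1.

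Gins3 had 171, 171 and 209.8 in the irinotecan libraries, against 177, 190.3 and 142 in the controls, with a log2 fold change of 0.12 (SE 0.200). Its highest value was in irinotecan replicate 3 and its lowest in control replicate 3. Gins4, the remaining GINS subunit, had 0.04 (SE 0.164), and Cdc45, which bridges GINS and the ring, 0.05 (SE 0.133). The groups overlapped for all 5 genes of this group. With irinotecan replicate 1 left out the log2 fold changes of Gins3, Gins4 and Cdc45 were 0.17, 0.15 and 0.10.

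Of the clamp and the clamp loader subunits 4 of 5 had negative fold changes, each of them nearer 0 or positive without irinotecan replicate 1. Rfc3, a small subunit of the loader, had 593, 952 and 881 normalized counts in irinotecan replicates 1, 2 and 3, against 1126, 917 and 1075 in control replicates 1, 2 and 3. Irinotecan replicates 1 and 3 lay below all 3 controls, and irinotecan replicate 2 lay just above the lowest control. The log2 fold change was -0.39 (SE 0.198, limma unadjusted p = 0.0866), and -0.18 (SE 0.120) without irinotecan replicate 1. Rfc2 had 921, 1617 and 1516 in the irinotecan libraries, against 1464, 1397 and 1472 in the controls. Irinotecan replicate 1 was far below the other 5 libraries, and the other 2 irinotecan values were above all controls, so the log2 fold change was -0.14 (SE 0.212) with that library and 0.12 (SE 0.099) without it.

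Pcna, the ring that tethers polymerases to DNA, had 4487, 6422 and 5352 normalized counts in irinotecan replicates 1, 2 and 3, against 6215, 5254 and 6554 in control replicates 1, 2 and 3. Its log2 fold change was -0.16 (SE 0.169) and -0.03 (SE 0.124) without irinotecan replicate 1, and the groups overlapped. For Rfc4 and Rfc5, further subunits of the loader, the log2 fold changes were 0.01 (SE 0.192) and -0.04 (SE 0.140), and 0.07 and -0.01 without irinotecan replicate 1. The pseudogene Pcna-ps2 had 18.5 to 29.9 normalized counts in irinotecan libraries and 34.5 to 43.6 in controls, and reads may be shared between it and Pcna. Exons of opposite-strand genes cover 15.1% of the exon bases of Rfc2, 12.7% of Rfc4 and 10.7% of Rfc5.

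The polymerase genes held the 2 largest positive fold changes of the list, and both were smaller without irinotecan replicate 1. Pole, the catalytic subunit of the leading-strand polymerase epsilon, had 2361, 1501 and 1599 normalized counts in irinotecan replicates 1, 2 and 3, against 1597, 1308 and 1516 in control replicates 1, 2 and 3. Irinotecan replicate 1 was the highest library and the other 2 irinotecan values lay among the controls or just above their highest. The log2 fold change was 0.28 (SE 0.191), and 0.08 (SE 0.113) without that library. Pola1, the catalytic subunit of polymerase alpha, had 2798, 1764 and 1703 normalized counts in irinotecan replicates 1, 2 and 3, against 1864, 1581 and 1858 in control replicates 1, 2 and 3. Again irinotecan replicate 1 was the highest library and the other 2 irinotecan values lay within the range of the controls, with a log2 fold change of 0.21 (SE 0.203) that became -0.02 (SE 0.108) without irinotecan replicate 1.

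Their partner subunits were not high in irinotecan replicate 1. Pole2, the accessory subunit of polymerase epsilon, had 510.3, 607 and 604 in the irinotecan libraries, against 547, 584 and 662 in the controls, a log2 fold change of -0.06 (SE 0.150). For Prim1, the catalytic primase subunit, the log2 fold change was 0.06 (SE 0.145). It was 0.02 for Pole2 and 0.12 for Prim1 without irinotecan replicate 1. The count of Pole over that of Pole2 was 4.63, 2.47 and 2.65 in irinotecan replicates 1, 2 and 3, against 2.92, 2.24 and 2.29 in control replicates 1, 2 and 3. The count of Pola1 over that of Prim1 was 2.82, 1.49 and 1.58, against 1.70, 1.74 and 1.65. In both pairs the ratio of irinotecan replicate 1 was the highest of the 6.

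Among the enzymes that make DNA building blocks, Tk1, the salvage kinase for thymidine, varied most. It had 442, 962 and 1120.0 normalized counts in irinotecan replicates 1, 2 and 3, against 1209, 982 and 956 in control replicates 1, 2 and 3. Irinotecan replicate 1 had less than any other library, and the other 2 irinotecan values lay within the range of the controls. The coefficient of variation was 42.2% in irinotecan tumours, the highest among the 34 genes, and 13.3% in controls. The log2 fold change was -0.42 (SE 0.320, 95% interval -1.15 to 0.32), and -0.01 (SE 0.130) without irinotecan replicate 1.

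Dut, which destroys dUTP and yields the substrate of thymidylate synthase, had 1007, 1286 and 1087 in the irinotecan libraries, against 1404, 1015 and 1408 in the controls. The lowest 2 values were 1 from each group, and the log2 fold change was -0.17 (SE 0.175). Tyms, the thymidylate synthase, had 649, 626 and 750.0 in the irinotecan libraries, against 660.0, 602 and 611 in the controls, with a log2 fold change of 0.11 (SE 0.140). For Rrm1 and Rrm2, the large and the small subunit of ribonucleotide reductase, the log2 fold changes were 0.07 (SE 0.140) and 0.02 (SE 0.134). Without irinotecan replicate 1 the log2 fold changes were -0.09 for Dut, 0.14 for Tyms, 0.01 for Rrm1 and 0.04 for Rrm2. Their counts stood in a ratio, Rrm1 over Rrm2, of 2.14, 1.74 and 1.87 in irinotecan replicates 1, 2 and 3, against 1.78, 1.79 and 1.97 in control replicates 1, 2 and 3, so that the 2 groups overlapped.

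All 3 G1/S regulators had negative fold changes, and none passed the threshold. E2f1, an activator of replication genes, had 585, 904 and 873 normalized counts in irinotecan replicates 1, 2 and 3, against 996, 867 and 929 in control replicates 1, 2 and 3. Irinotecan replicate 1 was the lowest, and the other 2 irinotecan values lay between the controls. The log2 fold change was -0.26 (SE 0.188), and -0.06 (SE 0.110) without that library. Ccne1, a cyclin that activates Cdk2 at the G1/S boundary, had 390.2, 457 and 514 in the irinotecan libraries, against 487, 429 and 469 in the controls, with a log2 fold change of -0.03 (SE 0.159). Ccne2, its close relative, had 855, 731 and 652 in the irinotecan libraries, against 649.7, 751 and 859.9 in the controls, with -0.01 (SE 0.166). These were 0.07 for Ccne1 and -0.12 for Ccne2 without irinotecan replicate 1. The count of Ccne1 over that of Ccne2 was 0.456, 0.625 and 0.788 in irinotecan replicates 1, 2 and 3, against 0.750, 0.571 and 0.545 in control replicates 1, 2 and 3, and the groups overlapped. Exons of Ints8 on the opposite strand cover 17.4% of the exon bases of Ccne2.

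The chromatin and histone genes had fold changes close to 0. Uhrf1, which reads hemimethylated DNA behind the fork and recruits the maintenance methyltransferase, had 2381, 2606 and 2620.0 normalized counts in irinotecan replicates 1, 2 and 3, against 2633, 2467 and 2655 in control replicates 1, 2 and 3. Its log2 fold change was -0.03 (SE 0.119, 95% interval -0.30 to 0.25), with the smallest standard error among the 34. Slbp, which binds the stem loop of replication-dependent histone mRNAs, had 1626, 2053 and 1856 in the irinotecan libraries, against 1786, 1871 and 1972 in the controls, with -0.03 (SE 0.135). Chaf1b, a subunit of the chromatin assembly factor that places new histones behind the fork, had 447, 451 and 509.8 in the irinotecan libraries, against 544, 388 and 540.3 in the controls, with -0.05 (SE 0.178). In each of the 3 genes the groups overlapped. Leaving out irinotecan replicate 1 gave log2 fold changes of 0.02 for Uhrf1, 0.06 for Slbp and -0.02 for Chaf1b.

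In the median of the list, libraries of 1 group differed more from each other than the groups did. The median deviation of the 34 genes from the control mean, on the log2 scale, was -0.12, 0.03 and 0.02 in irinotecan replicates 1, 2 and 3, against 0.08, -0.16 and 0.06 in control replicates 1, 2 and 3. Control replicate 2 had the lowest value of the 6 libraries for 15 of the 34 genes and the highest for none, whereas it was the lowest for 9.71% of all genes tested and the highest for 11.8%. Irinotecan replicate 1 had the lowest value for 16 genes and the highest for 5, beside 36.8% and 34.2% of all genes. Irinotecan replicates 2 and 3 had the lowest value for none, beside 10.4% and 14.5% of all genes. They had the highest for 5 each, beside 10.6% and 14.4%. Control replicates 1 and 3 had the highest for 9 and 10, beside 15.7% and 13.3%.

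The 2 low libraries were low in different ways. In control replicate 2 the deviations were close together, with an SD over the 34 genes of 0.09. In irinotecan replicate 1 they were scattered, with an SD of 0.41 and a range from -1.24 for Tk1 to 0.68 for Pole, while the other 4 libraries had an SD of 0.10 to 0.14. Over the 34 genes, the deviation in irinotecan replicate 1 had a Pearson correlation of -0.44 with the GC content of the gene (Spearman -0.38) and of 0.38 with the log2 of its length (Spearman 0.37). These correlations describe 1 library over 34 genes, which share that library and are not replicates. Tk1, E2f1 and Cdt1 have a GC content of 55.6%, 58.1% and 57.8%. Pola1 and Pole have 41.8% and 49.6%, and lengths of 8813 and 11160 bases. Other genes went against this order. Mcm2, with 57.4%, deviated by 0.14 in this library. Gins1, Rfc3 and Pcna, with 47.5%, 47.0% and 42.4%, deviated by -0.69, -0.80 and -0.41. Tk1 has a length of 5198 bases, above the median of 3930.5 of the 34 genes. The part of GC content and length in the values of single genes of this library was not tested beyond the removal of the trend.

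**Figure D4:**
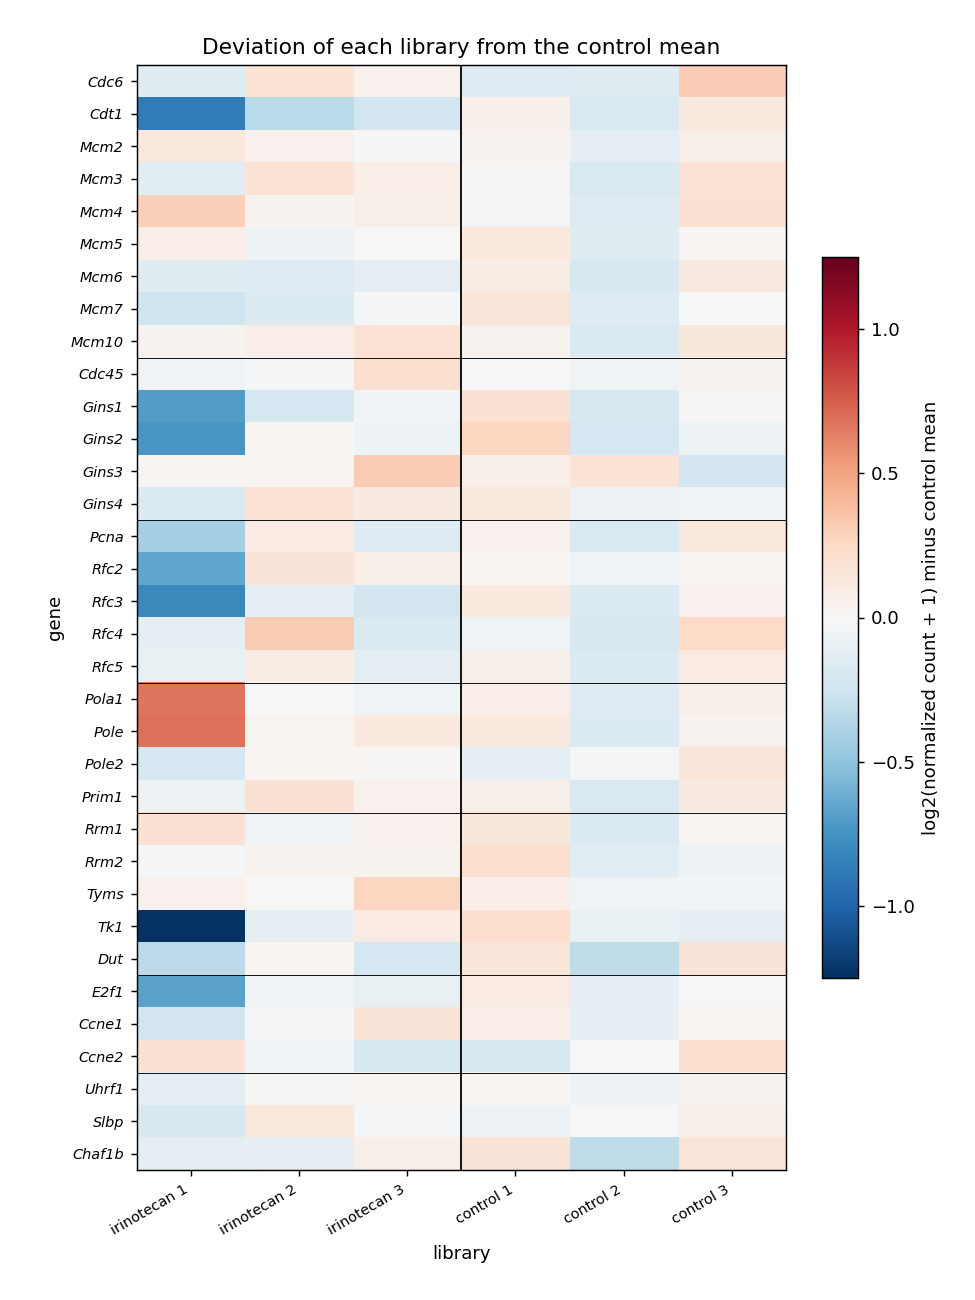
Deviation of each library (columns, irinotecan left of control) from the control mean, for the 34 genes (rows), in log2 units by colour. Irinotecan replicate 1 holds the darkest cells, from -1.24 in Tk1 to 0.68 in Pole, and control replicate 2 is pale blue in most rows.

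Genes around the replication machinery were read from 5 further lists, each of which was described by counts and medians. Of 35 other replication genes, 16 had positive and 19 negative log2 fold changes, with a median of -0.06, and 3 had groups that did not overlap, all lower with irinotecan, beside 7.89% of all genes. Recql4, a helicase that acts in replication initiation, had 277, 321 and 326 in the irinotecan libraries, against 513, 388 and 454 in the controls, a log2 fold change of -0.55 (SE 0.169, limma unadjusted p = 0.0113). For Pold4 and Pold2, accessory subunits of polymerase delta, the log2 fold changes were -1.02 (SE 0.376) and -0.55 (SE 0.262). All 3 had a limma adjusted p of 0.743. Without irinotecan replicate 1, which had the lowest value of all 3, the log2 fold changes were -0.47 (SE 0.148) for Recql4, -0.55 (SE 0.166) for Pold4 and -0.24 (SE 0.131) for Pold2, and the median of the list was -0.03. Of 22 genes of the E2F and RB families with G1/S cyclins and kinases, 16 were positive and 6 negative, with a median of 0.13. Groups did not overlap for 2 genes, higher with irinotecan, and for 1, lower, beside 6.68% and 7.89% of all genes. The genes with the smallest unadjusted p were E2f4, Ccnd2 and Rbl2. E2f4, an E2F of the repressor class, had -0.46 (SE 0.239) and the cyclin gene Ccnd2 0.43 (SE 0.251). Rbl2, a relative of the retinoblastoma protein, had 0.41 (SE 0.261). Irinotecan replicate 1 stood far from the other libraries in each of them, and without it the log2 fold changes were -0.15 (SE 0.095) for E2f4, 0.12 (SE 0.106) for Ccnd2 and 0.10 (SE 0.129) for Rbl2. The median of the list was then 0.05, while Ccnd3, named after its values were seen, moved from 0.23 (SE 0.199) to 0.46 (SE 0.102).

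The 13 checkpoint and fork protection genes had a median log2 fold change of -0.03, with 5 positive and 8 negative. Groups did not overlap for 1 of them, Rad9a, lower with irinotecan, beside 7.89% of all genes. Rad9a, part of the checkpoint clamp, had -0.46 (SE 0.231), Tipin, of the fork protection complex, -0.32 (SE 0.199), and Rif1, which times replication, 0.27 (SE 0.193). With irinotecan replicate 1 left out these were -0.19 (SE 0.128) for Rad9a, -0.13 (SE 0.137) for Tipin and 0.14 (SE 0.156) for Rif1, and the median was -0.08. The 12 histone and chromatin assembly genes had a median of 0.01, with 6 of each sign. Groups did not overlap for 0 of the 12, beside 14.6% of all genes. Nasp, a histone chaperone, had -0.42 (SE 0.184), the histone acetyltransferase gene Hat1 -0.31 (SE 0.238) and Atad2, a bromodomain ATPase, 0.20 (SE 0.161). Leaving out irinotecan replicate 1 gave -0.25 (SE 0.124) for Nasp, -0.01 (SE 0.103) for Hat1 and 0.08 (SE 0.114) for Atad2, with a median of 0.02. None of the genes in these lists passed the threshold.

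Genes of G2 and mitosis, the phases that follow S phase, had mostly positive fold changes. Of 20 such genes 13 had positive and 7 negative log2 fold changes, with a median of 0.14, and 4 had groups that did not overlap, all higher with irinotecan, beside 6.68% of all genes. Besides the 3 described next these included the cyclin gene Ccnb1, named after its values were seen. Cenpf, a kinetochore protein gene, had 4628, 3311 and 3959 normalized counts in irinotecan replicates 1, 2 and 3, against 2762, 2861 and 2142 in control replicates 1, 2 and 3. All irinotecan values lay above the highest control, with a log2 fold change of 0.61 (SE 0.174, limma unadjusted p = 0.00734, adjusted p = 0.743). Kif11, a spindle motor gene, had 2530.0, 2225 and 2196 in the irinotecan libraries, against 2059.5, 1896 and 1664 in the controls, with 0.31 (SE 0.137). Top2a, which encodes the topoisomerase that untangles sister chromatids, had 13667, 9874 and 10181 in the irinotecan libraries, against 8465, 9647 and 7700.0 in the controls, with 0.38 (SE 0.173). Without irinotecan replicate 1 the log2 fold changes were 0.50 (SE 0.136) for Cenpf, 0.24 (SE 0.111) for Kif11 and 0.23 (SE 0.115) for Top2a. Over the list 20 were then positive and 0 negative, with a median of 0.18, beside 7256 positive and 7383 negative of all genes tested. The 20 genes share the same libraries and are not replicates. No gene of this list passed the threshold, and the difference between it and the 34 replication genes was not tested.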

How the data were processed

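The authors deposited 1 table of 25251 genes. The submitters' processing notes name HISAT2 2.0.5 and featureCounts 1.5.0-p3, with CASAVA, fastp and DESeq2 1.20.0, and the build GRCm38 (mm10), with no role for each. The strand setting and the annotation release were not stated in them. The deposited library columns hold a normalized signal, which is a read count per gene divided by 1 factor per library. In every library 100% of the values came out as whole reads at a tolerance of 1e-06, and the reads so recovered number 13940650 to 15656894 per library. The authors' table also gives log2 fold changes and p-values, per the file headers. Depth limits counting error only, since reads carry no molecular identifiers.

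From these values log2(normalized count + 1) was fitted with limma 3.58.1 in R 4.3.3 (empirical Bayes, mean-variance trend, group as the only term) over the 14639 genes with a mean of at least 10, with Benjamini-Hochberg adjustment and a threshold of 0.05. All 34 genes passed that filter. A fold change on this scale understates the change of low genes. Intervals are limma's 95% intervals. The alternatives were DESeq2 1.42.0 and edgeR 4.0.16 (TMM, quasi-likelihood) on the recovered reads, quantile normalization, pseudocounts of 0.5 and 10, no filter, the replicate number as a block, library weights, removal of a trend on GC content and length (mgcv 1.9.3) and each library left out. The fits were first tested on simulated data. The members, the gene lists and the rule for named genes were chosen with earlier results of these data known. The rule gives values in every sample for the 3 genes with the smallest unadjusted p in each role group, and names the 3 with the smallest in each further list. GC content, exon overlap and the principal transcript lengths were taken from GENCODE M21, and promoters from RefSeq. The principal transcript length, and the counts of genes whose groups do not overlap and the fold changes of the further lists without irinotecan replicate 1, were added after the data were seen.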

Additional observations from a re-analysis of the deposited data

How the results depend on the processing

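None of the 34 genes passed the threshold in either direction under any alternative, and their smallest adjusted p was 0.336, for Cdt1 with limma library weights. The median of the 34 log2 fold changes ran from -0.07 to 0.02 when each library was left out in turn. Over all genes limma called 0 higher and 0 lower, edgeR called 0 and 0, DESeq2 29 and 23, and limma with library weights 30 and 22, whereas leaving out a library gave 0 to 2 higher, the 2 without irinotecan replicate 1. With the replicate number as a block 0 genes were called, 0 of the 34 had an unadjusted limma p under 0.05 and the median was again -0.02. Same-numbered samples did not deviate together, with correlations of -0.11, -0.01 and -0.21, beside -0.05 to 0.16 between samples of different number. Deviations were taken from the mean of each group of 3 samples, so these values cannot settle whether the numbers mark pairs. The sign was the same under all alternatives for 14 genes and turned under some for 20, and the cause was not tested. With quantile normalization Mcm2 was at -0.0018, Mcm3 -0.00724, Mcm5 -0.0366, Rrm2 -0.0221 and Ccne1 0.0216. With library weights Mcm5 was at -0.0514, Rfc2 0.0924, Pola1 -0.00574, Pole2 0.0343, Rrm1 -0.0125, Ccne1 0.0398, Uhrf1 0.00813 and Slbp 0.0685. With the GC and length trend removed Cdc6 was at -0.0418, Mcm10 -0.000917, Prim1 -0.0226, Rrm1 -0.131 and Ccne1 0.0123, and Cdt1 had -0.32. Leaving out each library gave ranges of -0.057 to 0.176 for Cdc6, -0.00158 to 0.0958 for Mcm2, -0.054 to 0.13 for Mcm3, -0.0711 to 0.07 for Mcm5, -0.031 to 0.0975 for Cdc45, -0.0329 to 0.148 for Gins4, -0.289 to 0.117 for Rfc2, -0.146 to 0.135 for Rfc4, -0.126 to 0.00915 for Rfc5, -0.0245 to 0.334 for Pola1, -0.121 to 0.0226 for Pole2, -0.0393 to 0.118 for Prim1, -0.0215 to 0.14 for Rrm1, -0.0496 to 0.116 for Rrm2, -0.126 to 0.0717 for Ccne1, -0.117 to 0.0861 for Ccne2, -0.0615 to 0.0164 for Uhrf1, -0.11 to 0.0582 for Slbp and -0.211 to 0.0323 for Chaf1b. Cdt1 ranged from -0.61 to -0.28.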

Other observations

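Fen1, the flap endonuclease that trims Okazaki fragments, and Lig1, the ligase that joins them, were among the other replication genes, and both are named after their values were seen. Fen1 had 13.3, 17.3 and 30.4 normalized counts in irinotecan replicates 1, 2 and 3, against 29.0, 21.96 and 25.2 in control replicates 1, 2 and 3. Lig1 had 1110.0, 1701 and 1942 in the irinotecan libraries, against 1983, 1617 and 1577 in the controls. Exons of Gm10143 and Tmem258 cover 84.2% of the exon bases of Fen1 on the opposite strand, and the part of that overlap in the low counts of Fen1 was not tested.

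Sums of further cell type markers overlapped between the groups. Each sum is carried by its most abundant markers, such as Fabp4 among the adipocyte markers and Col1a2 among the fibroblast markers. Over 7 macrophage and monocyte markers the sum was 3007, 7925 and 8504 normalized counts in irinotecan replicates 1, 2 and 3, against 9604, 9222 and 7215 in control replicates 1, 2 and 3. Over 7 T cell markers it was 224, 441 and 339, against 282, 331 and 235. Over 6 fibroblast markers it was 35470.3, 38746 and 39313, against 33909, 42165 and 30664. Over 3 NK cell markers it was 77.0, 101 and 62.8, against 70.1, 68.0 and 57.1. Over 4 skeletal muscle markers it was 91.4, 189 and 576, against 294, 23.0 and 221, and over 3 adipocyte markers 106, 239.8 and 363, against 406, 238 and 287. Single markers without overlap were Csf1r and Adgre1, lower with irinotecan, and Mylpf, higher, beside 7.89% and 6.68% of all genes. Their log2 fold changes were -0.35, -0.41 and 1.57, and -0.16, -0.35 and 1.87 without irinotecan replicate 1.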
